A study of Homo sapiens with 12 samples.

Results

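The 10 genes described here act at the last steps of ferroptosis, where membrane lipids become peroxidised or are protected from it. They were GPX4, AIFM2, DHODH, GCH1, ACSL4, ACSL3, LPCAT3, ALOX5, VDAC2 and VDAC3, taken by name from the count tables, which list 58735 genes. The libraries came from KELLY, a MYCN-amplified neuroblastoma cell line, and SK-N-AS, a neuroblastoma line without that amplification. Both lines were grown in RPMI medium with fetal bovine serum, seeded in triplicate, and harvested after 24 h with DMSO or with Erastin, at 1 µM in KELLY and 2 µM in SK-N-AS. The 4 groups held 3 libraries each, 12 in all. Each line stands for itself only, and since cell line and dose changed together, their parts in any difference in response cannot be told apart. The p-values below weigh a difference against the spread between these cultures, and repeat experiments are not described for the sequenced RNA.

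Erastin blocks the cystine/glutamate antiporter, which starves the cell of cysteine and of the glutathione built from it. Ferroptosis then follows from the iron-dependent peroxidation of polyunsaturated acyl chains in membrane phospholipids. ACSL4 and LPCAT3 place such chains in phospholipids, lipoxygenases such as ALOX5 can oxidise them, GPX4 reduces the lipid peroxides with glutathione, and AIFM2 (FSP1), DHODH and GCH1 maintain radical-trapping coenzyme Q and tetrahydrobiopterin. VDAC2 and VDAC3 are channels of the outer mitochondrial membrane and were identified as binding partners of erastin.

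Library totals ran from 24169796 to 29835670 counts. The cells are labelled neuroblast, and 10 of 10 neuroblast markers exceeded 1 CPM (counts scaled to a library total of 1000000) in the 6 KELLY libraries, against 9 of 10 in SK-N-AS, where MYCN had at most 11 counts. Summed CPM of these markers was 9333 to 17620 in KELLY and 938 to 1050 in SK-N-AS, and that of 6 mesenchymal markers was 109 to 164 in KELLY and 2256 to 2646 in SK-N-AS. Of 15 blood cell markers, PTPRC had 12835 to 16496 counts in SK-N-AS and 0 in KELLY, while LYZ, ITGAM, CD3E and MS4A1 were at 0 in all 12 libraries. At most 10 counts in every library of the group were found for 12 of the 15 in SK-N-AS DMSO, 10 in SK-N-AS Erastin and 13 in each KELLY group. In KELLY the summed blood markers stayed at or below 15.5 CPM.

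A pair of KELLY libraries stood apart. Across 11913 genes, the deviation of a library from its line's mean followed the GC content of each gene's longest transcript. The Spearman coefficient was -0.82 in KELLY DMSO 1 and 0.86 in KELLY Erastin 1 (-0.64 to 0.69 in the other 4 KELLY libraries, -0.74 to 0.76 in SK-N-AS). The members span this range, from ACSL4 (35.5% GC, percentile 2.56 of the genes tested) and ACSL3 (37.1%, percentile 5.73) to GPX4 (62.5%, percentile 92.2). Among the 9 members with enough reads to be tested, KELLY DMSO 1 held the highest value of the line for 6 (GCH1, ACSL4, ACSL3, LPCAT3, VDAC2, VDAC3) and the lowest for the other 3 (GPX4, AIFM2, DHODH). KELLY Erastin 1 held the lowest value for those same 6 and the highest for GPX4 and DHODH. Results in KELLY are therefore also given without these 2 libraries.

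**Figure D1:**
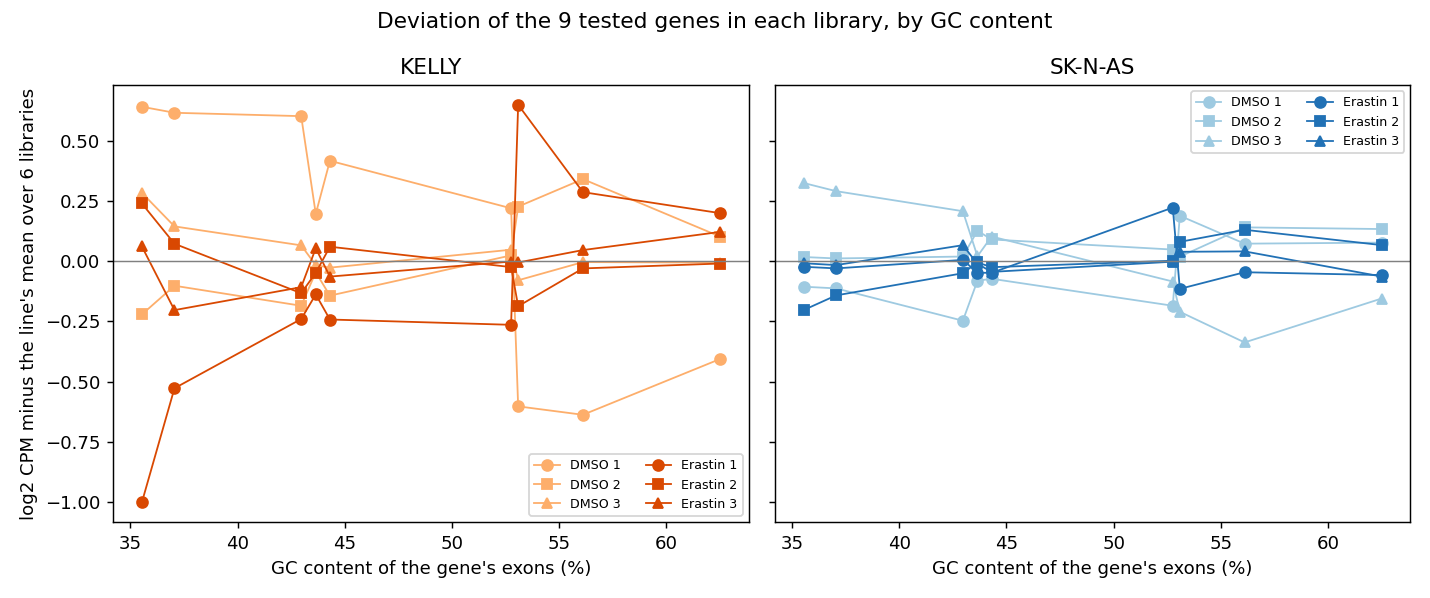
Deviation of each of the 9 tested genes from its line's mean log2 CPM (vertical axis) against the GC content of its longest transcript in percent (horizontal axis, labelled as exons). There is 1 line per library, with KELLY left and SK-N-AS right. In KELLY, DMSO 1 goes from 0.64 at ACSL4 to -0.41 at GPX4, and Erastin 1 from -1.00 to 0.20, neither of them steadily. At nearly equal GC content, DMSO 1 is at 0.22 for LPCAT3 and -0.60 for DHODH, and Erastin 1 at -0.26 and 0.65. The SK-N-AS libraries stay between -0.34 and 0.33.

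CHAC1, a glutathione-degrading enzyme whose mRNA is a known marker of Erastin exposure, served as the check of the treatment. In SK-N-AS it was at 1.18, 0.795 and 0.864 CPM under DMSO and at 17.5, 28.8 and 20.5 CPM under Erastin. It rose by 4.56 on the log2 scale (SE 0.23, adjusted p = 1.545e-06, edgeR quasi-likelihood test). In KELLY it went from 3.57, 4.63 and 4.23 CPM to 44.6, 21.7 and 29.1 CPM, so that the groups did not overlap. The KELLY difference of 2.94 (SE 0.30) had an adjusted p of 0.0902, and it was called without Erastin 1 (2.61, adjusted p = 0.0400), without Erastin 2 (3.15, adjusted p = 0.0343) and without both libraries numbered 1 (2.52, adjusted p = 6.18e-04). Without DMSO 1, DMSO 2, DMSO 3 or Erastin 3 alone, no gene was called in KELLY, CHAC1 included.

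Windows of 250 bases before the RefSeq start of CHAC1 and of the members (GRCh38.p14) were searched for 3 motifs on both strands. GENCODE places some starts further upstream, so that 109 bases of the AIFM2 window, 156 of the DHODH window and the whole CHAC1 window lie past its start. TGATGNAA is the letter pattern of ATF4-type sites and occurs in 3.14% of 35116 such windows, TGACNNNGC is the core of antioxidant response elements (10.9%), and CACGTG is an E-box (6.34%). No matches of these overlapped in the windows described. Windows were searched for 7 of the 10 members. For GCH1, ALOX5 and VDAC3 a window was missing or was not used, so matches before these genes were not examined. CHAC1 held TGATGNAA, AIFM2 held TGACNNNGC, DHODH and 1 of the 2 windows of VDAC2 held CACGTG, and GPX4 (3 windows), ACSL4, ACSL3 and LPCAT3 held none. The match of AIFM2 also contains TGAGTCA, the letters of an AP-1 site, which 4.2% of windows hold. The stretches with a match are shown for CHAC1 (chr15:40953251-40953280, plus strand), AIFM2 (chr10:70132829-70132858, minus strand) and DHODH (chr16:72008573-72008602, plus strand), with the matched letters in capitals. By GENCODE the matches of CHAC1 and AIFM2 lie within the gene and that of DHODH spans its start. The window parts before both starts are shown for GPX4 (chr19:1103744-1103981, plus strand) and ACSL4 (chrX:109733404-109733507, minus strand), which differed between the lines below and hold no match.
CHAC1: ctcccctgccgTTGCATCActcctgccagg
AIFM2: ccagcacgagtGCTGAGTCAcgccccgccc
DHODH: gccgctactgcgCACGTGcacccaaccaga
GPX4: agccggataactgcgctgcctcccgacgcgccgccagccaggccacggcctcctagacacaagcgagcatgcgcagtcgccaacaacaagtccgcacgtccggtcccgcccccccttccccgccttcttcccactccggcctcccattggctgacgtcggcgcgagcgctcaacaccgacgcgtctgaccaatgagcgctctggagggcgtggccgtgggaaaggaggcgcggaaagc
ACSL4: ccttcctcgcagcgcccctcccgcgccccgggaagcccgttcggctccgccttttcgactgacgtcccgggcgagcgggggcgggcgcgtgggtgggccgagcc
A match describes these letters only, and their use in these cells was not tested.

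Levels were compared between genes as CPM per kilobase of exon (mean ± SD of the 3 DMSO libraries). In KELLY, VDAC2 was highest at 91.4 ± 19.5, followed by GPX4 at 43.9 ± 7.76 and VDAC3 at 37.3 ± 3.50, and the values of the last pair overlapped. ACSL3 (8.68 ± 2.25), GCH1 (6.68 ± 1.92), ACSL4 (4.61 ± 1.33), AIFM2 (3.72 ± 1.20), LPCAT3 (3.38 ± 0.255) and DHODH (2.95 ± 0.815) formed a run in which every neighbour overlapped the next. The order was led in SK-N-AS by GPX4 at 88.6 ± 9.12, above VDAC2 at 74.1 ± 4.92 with no overlap. VDAC3 followed at 25.5 ± 1.83, then GCH1 (12.8 ± 1.99), ACSL3 (11.9 ± 1.73) and ACSL4 (10.6 ± 1.67), which overlapped, then AIFM2 (3.84 ± 0.651), LPCAT3 (3.09 ± 0.251) and DHODH (2.68 ± 0.367), where each overlapped its neighbour. Per kilobase of the longest transcript instead, GPX4 and VDAC2 in SK-N-AS stood at 138 and 137, VDAC3 (83.7) passed GPX4 (68.2) in KELLY, and GCH1 (12.9) fell below ACSL3 (20.3) and ACSL4 (14.6) in SK-N-AS, so these orders depended on the length used.

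ALOX5, the lipoxygenase of leukotriene synthesis, was nearly without reads. It had 6, 1 and 1 counts in KELLY DMSO, 0, 0 and 4 in KELLY Erastin, 1, 0 and 0 in SK-N-AS DMSO and 0, 3 and 0 in SK-N-AS Erastin. A count of 0 allows a level of up to 0.102 to 0.123 CPM in these libraries, for counting error only. In the main fit of each comparison ALOX5 fell below the count filter, so it was not tested there and no fold is given. DESeq2 and the fit with no filter included it and did not call it for Erastin in either line. A difference was not detectable at this depth.

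**Figure D2:**
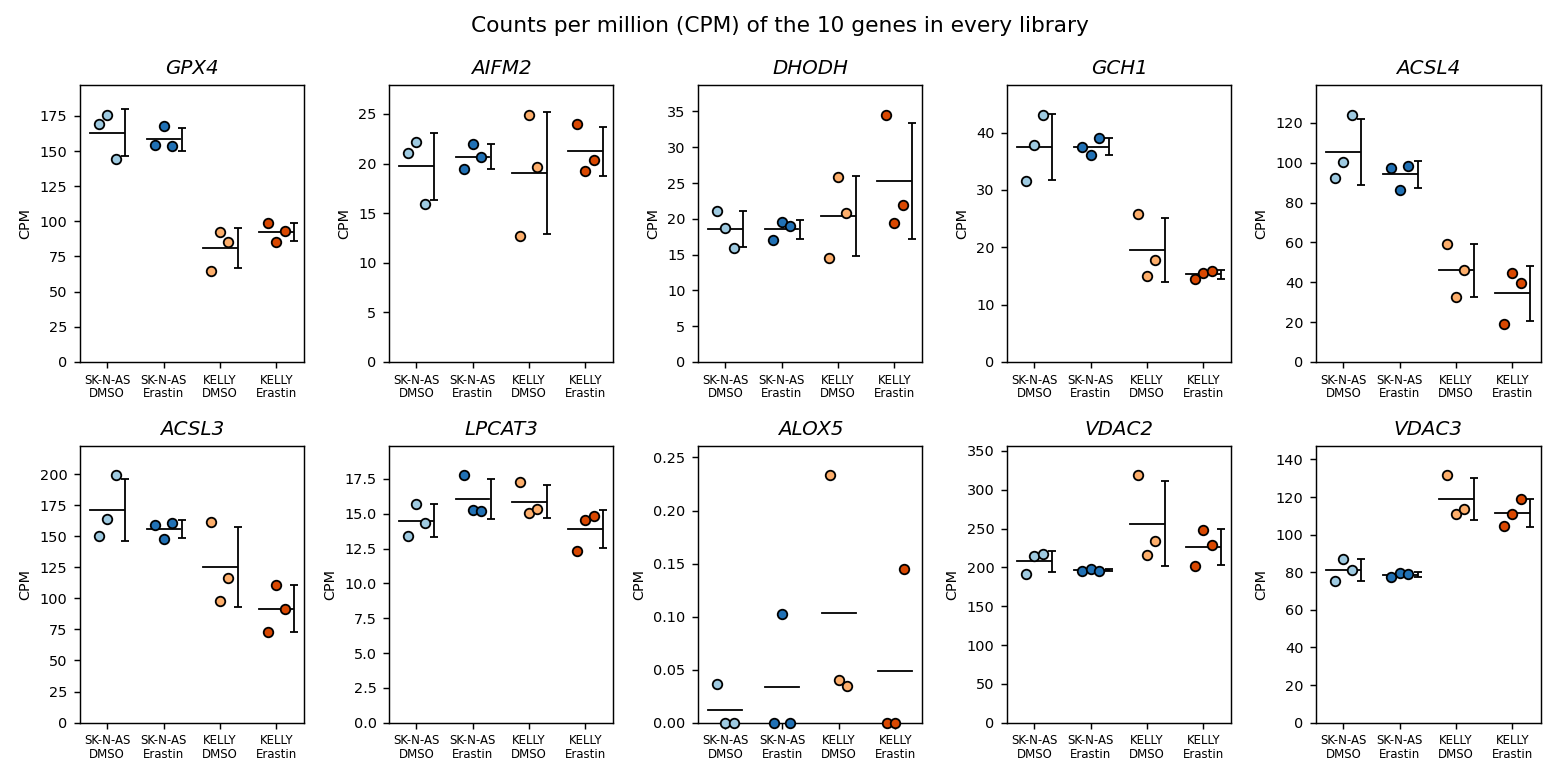
CPM (vertical axes, linear from 0, a scale of its own for each gene) of the 10 genes in every library, by group, with points for libraries 1 to 3 from left to right, a bar at the mean and a whisker of 1 SD (no whisker for ALOX5). GPX4, GCH1 and ACSL4 are lower and VDAC3 is higher in every KELLY DMSO library than in every SK-N-AS DMSO library, and within a line the DMSO and Erastin points overlap for each gene tested except LPCAT3 in KELLY.

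In KELLY, no member passed the test after 24 h of Erastin. Of the 9 members tested, the quasi-likelihood test of edgeR called 0 at a Benjamini-Hochberg adjusted p under 0.05, where it called 1 of 16258 genes (0.00615%). DESeq2 and limma-voom also called 0. An unadjusted p of 0.05 or less was reached by 0 members and by 2.64% of all genes, and by 0 and 2.03% with a fold of at least 1.5 besides, which is the rule of the study's methods. The members' median log2 fold change was -0.18 (range -0.45 to 0.32, 3 of 9 above 0 where 50.5% of all genes were), against 0.01 over all genes, and their median absolute change was 0.20, against 0.23. Adjusted p-values of the members ran from 0.770 to 0.816.

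Among the defences in KELLY, GPX4 was at 64.8, 92.1 and 85.5 CPM under DMSO and 98.5, 85.2 and 93.3 CPM under Erastin. AIFM2, which regenerates reduced coenzyme Q at the plasma membrane, was at 12.7, 24.9 and 19.6 CPM and then 24.0, 19.3 and 20.3 CPM. In each of these genes the lowest DMSO value came from library 1, and the groups overlapped. The fitted log2 changes were 0.20 for GPX4 (95% CI -0.21 to 0.60) and 0.16 for AIFM2 (95% CI -0.44 to 0.75). DHODH, the mitochondrial pyrimidine enzyme that also reduces coenzyme Q, was at 14.5, 25.8 and 20.9 CPM and then 34.6, 19.4 and 22.0 CPM, with a fitted change of 0.32 (95% CI -0.36 to 0.99). GCH1, which starts tetrahydrobiopterin synthesis, was at 25.8, 14.98 and 17.8 CPM and then 14.4, 15.5 and 15.8 CPM, with a change of -0.36 (95% CI -0.89 to 0.17). For DHODH the highest of the 6 values was Erastin 1, and for GCH1 it was DMSO 1.

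Of the lipid remodelling enzymes in KELLY, ACSL4, which activates arachidonic and adrenic acid, was at 59.1, 32.5 and 46.1 CPM under DMSO and 18.9, 44.7 and 39.6 CPM under Erastin. ACSL3, which activates monounsaturated and other fatty acids at lipid droplets and the endoplasmic reticulum, was at 161, 98.2 and 116 CPM and then 73.1, 111 and 91.5 CPM. Both had their highest value in DMSO 1 and their lowest in Erastin 1. The fitted changes were -0.42 for ACSL4 (95% CI -1.22 to 0.39) and -0.45 for ACSL3 (95% CI -0.99 to 0.10), the latter with the smallest unadjusted p of the members (0.0948). LPCAT3, which places polyunsaturated chains on lysophospholipids, was at 17.3, 15.1 and 15.3 CPM and then 12.3, 14.6 and 14.8 CPM. It was the only member whose groups did not overlap, as for 4.34% of all genes in that direction, and its change was -0.19 (95% CI -0.57 to 0.20). The exons of LPCAT3 share 66.0% of their bases with EMG1 on the opposite strand, and since the strand setting of the counting is not given in the sources used here, its counts are uncertain.

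The channels in KELLY were at 319, 216 and 234 CPM under DMSO and 202, 249 and 228 CPM under Erastin for VDAC2, and at 132, 111 and 113 CPM and then 104, 111 and 119 CPM for VDAC3. The groups overlapped for both. The changes were -0.18 for VDAC2 (95% CI -0.61 to 0.25) and -0.09 for VDAC3 (95% CI -0.42 to 0.25). The 5 pseudogenes VDAC2P1 to VDAC2P4 and VDAC3P1 had at most 5 counts in any library, so few reads were assigned to those copies, though reads shared with them may have been left uncounted.

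Without both KELLY libraries numbered 1, the changes of the 9 members lay between -0.17 (DHODH) and 0.10 (ACSL4), with 0 called, and 23 genes were called in all. DHODH, AIFM2, ACSL4, VDAC2 and VDAC3 then had the opposite sign. With all 6 libraries and the GC correction, the changes lay between -0.34 (LPCAT3) and 0.16 (DHODH), again with 0 called, and GPX4 (-0.15, 95% CI -0.52 to 0.21), AIFM2 (-0.03, 95% CI -0.31 to 0.25) and VDAC3 (0.02) changed sign. Without the 2 libraries ACSL4 moved from -0.42 to 0.10 (95% CI -0.28 to 0.48) and ACSL3 from -0.45 to -0.08 (95% CI -0.39 to 0.23).

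In SK-N-AS the intervals were narrower and again no member passed the test. Of 9 members tested 0 were called, where 106 of 16095 genes were (0.659%), and DESeq2 and limma-voom called 0 as well. An unadjusted p of 0.05 or less was reached by 0 members and 8.77% of all genes, and together with a fold of at least 1.5 by 0 members and 2.67% of genes. For 0 of the 9 were the groups free of overlap, as they were for 14.8% of all genes. The median log2 fold change was -0.03 (range -0.16 to 0.16, 4 of 9 above 0 where 47.6% of all genes were) against -0.01 over all genes, and the median absolute change was 0.07 against 0.11. Over the 9 members, the 95% intervals ran from -0.40 to 0.42, that is from 0.756-fold to 1.33-fold. For KELLY the corresponding limits were 0.429-fold and 1.99-fold.

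GPX4 in SK-N-AS was at 169, 176 and 144 CPM under DMSO and 154, 168 and 153 CPM under Erastin (log2 change -0.03, 95% CI -0.23 to 0.17). AIFM2 was at 21.1, 22.1 and 15.9 CPM and then 19.4, 22.0 and 20.7 CPM (0.08, 95% CI -0.20 to 0.36). The Erastin values of both lay within the DMSO range. DHODH was at 21.0, 18.7 and 16.0 CPM and then 17.1, 19.5 and 19.0 CPM (0.01, 95% CI -0.26 to 0.27). GCH1 was at 31.5, 37.9 and 43.1 CPM and then 37.5, 36.1 and 39.1 CPM (0.01, 95% CI -0.24 to 0.27). Those of DHODH and GCH1 also lay within the DMSO range.

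ACSL4 in SK-N-AS was at 92.1, 100 and 124 CPM under DMSO and 97.5, 86.1 and 98.5 CPM under Erastin (-0.16, 95% CI -0.40 to 0.09, adjusted p = 0.798). ACSL3 was at 150, 164 and 199 CPM and then 159, 147 and 161 CPM (-0.12, 95% CI -0.35 to 0.10). In both the highest value was DMSO 3, a library in which low-GC genes were high across the transcriptome. With a correction for GC content the estimates were -0.15 (SE 0.05, adjusted p = 0.0586) for ACSL4 and -0.12 (SE 0.04, adjusted p = 0.0994) for ACSL3. LPCAT3 was at 13.4, 15.7 and 14.4 CPM and then 17.8, 15.2 and 15.2 CPM (0.16, 95% CI -0.10 to 0.42), with overlap.

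VDAC2 in SK-N-AS was at 192, 215 and 217 CPM under DMSO and 195, 198 and 196 CPM under Erastin (-0.07, 95% CI -0.24 to 0.10). VDAC3 was at 75.5, 87.2 and 81.1 CPM and then 77.3, 79.6 and 79.3 CPM (-0.03, 95% CI -0.22 to 0.15). The Erastin libraries of both channels lay within the DMSO range.

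**Figure D3:**
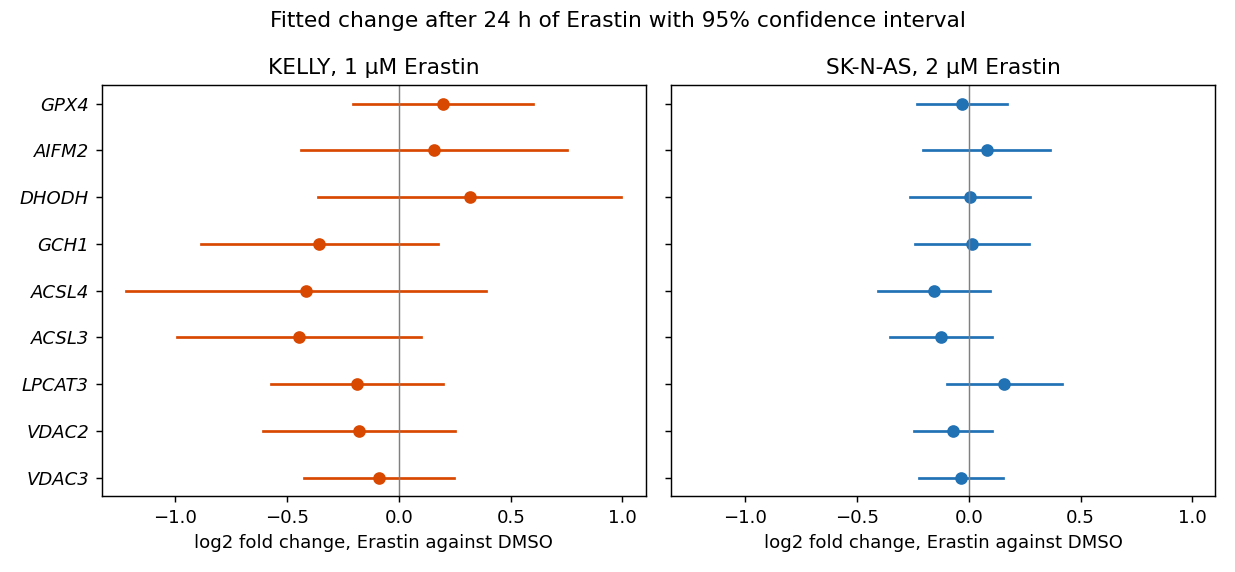
Fitted log2 fold change of Erastin against DMSO (horizontal axes) for the 9 tested genes, KELLY left and SK-N-AS right, with points for the estimate and lines for its 95% confidence interval. Every interval includes 0, and the KELLY intervals are wider, reaching -1.22 for ACSL4, where the SK-N-AS interval ends at -0.40.

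Whether the response differed between the lines was tested as an interaction over all 12 libraries. Of the 9 members 0 were called, where 1 of 18239 genes was (0.00548%), and an unadjusted p of 0.05 or less was reached by 0 members and 4.25% of all genes. LPCAT3 ranked first among the members (SK-N-AS change minus KELLY change 0.34, 95% CI -0.08 to 0.76, adjusted p = 0.811). The interaction of CHAC1 was 1.61 (SE 0.41, adjusted p = 0.811), and 2.06 with the GC correction, where it was called (adjusted p = 0.00547).

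Between the lines under DMSO, GPX4, GCH1 and ACSL4 were lower in KELLY and VDAC3 was higher. This made 4 of 9 members called, where 61.3% of 17089 genes were called, 30.9% as higher in KELLY and 30.3% as lower. The members' share was thus not above that of all genes. Their median absolute log2 difference was 0.44, against 0.82 over all genes. The same 4 had groups that did not overlap, as 66.3% of all genes did. In bulk RNA, fewer cells of a type and less RNA per cell cannot be told apart, and the lines also differed in the neuroblast, mesenchymal and PTPRC levels given above, whose part in these differences was not tested.

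GPX4 averaged 80.8 ± 14.3 CPM (SD, n = 3) in KELLY and 163 ± 16.8 CPM in SK-N-AS, a log2 difference of -1.00 (SE 0.17, adjusted p = 7.95e-04). This gene lies on chromosome 19 (GRCh38, chr19:1103982-1106791). GCH1 (chr14:54842008-54902826) averaged 19.6 ± 5.63 CPM in KELLY and 37.5 ± 5.84 CPM in SK-N-AS, a difference of -0.92 (SE 0.23, adjusted p = 0.00711). AIFM2 (chr10:70098223-70132934) averaged 19.1 ± 6.15 and 19.7 ± 3.35 CPM and did not pass (-0.03, 95% CI -0.61 to 0.55), nor did DHODH (chr16:72008588-72027664), which averaged 20.4 ± 5.64 and 18.6 ± 2.54 CPM (0.15, 95% CI -0.37 to 0.67). Thus 2 of the 4 defence genes were lower in KELLY, and the intervals of the others include both signs. The exons of AIFM2 share 19.2% of their bases with MACROH2A2 on the opposite strand.

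ACSL4 (chrX:109624244-109733403) showed the largest difference of the members by fold, with 45.9 ± 13.3 CPM in KELLY and 106 ± 16.6 CPM in SK-N-AS (-1.18, SE 0.23, adjusted p = 0.00181). ACSL3 (chr2:222860942-222944639) averaged 125 ± 32.5 and 171 ± 25.0 CPM and did not pass (-0.44, SE 0.20, adjusted p = 0.0921). Its KELLY value in DMSO 1, at 161 CPM, lay inside the SK-N-AS range of 150 to 199 CPM. Without KELLY DMSO 1 the difference was -0.66 (SE 0.15, adjusted p = 0.00178), and with the GC correction it was -0.49 (SE 0.06, adjusted p = 4.28e-05), both past the threshold. LPCAT3 (chr12:6976185-7018477) averaged 15.9 ± 1.20 and 14.5 ± 1.18 CPM and did not pass (0.15, 95% CI -0.21 to 0.50).

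VDAC3 (chr8:42391624-42405937) averaged 119 ± 11.1 CPM in KELLY and 81.3 ± 5.83 CPM in SK-N-AS (0.56, SE 0.14, adjusted p = 0.00620). VDAC2 (chr10:75210154-75231448) averaged 256 ± 54.6 and 208 ± 13.8 CPM and did not pass (0.32, SE 0.17, adjusted p = 0.130). It passed without KELLY DMSO 2 (0.42, adjusted p = 0.0457) and with the GC correction (0.42, SE 0.10, adjusted p = 0.00360), whereas without KELLY DMSO 1 it was 0.14 (adjusted p = 0.361). The 4 members called kept their direction and their call in all 18 alternative fits. Their log2 differences were -1.10 to -0.86 for GPX4, -1.17 to -0.77 for GCH1, -1.40 to -0.99 for ACSL4 and 0.49 to 0.65 for VDAC3. The rule of the study's methods is not among those fits. Under it the 3 members lower in KELLY passed, and VDAC3, at 1.476-fold, did not.

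**Figure D4:**
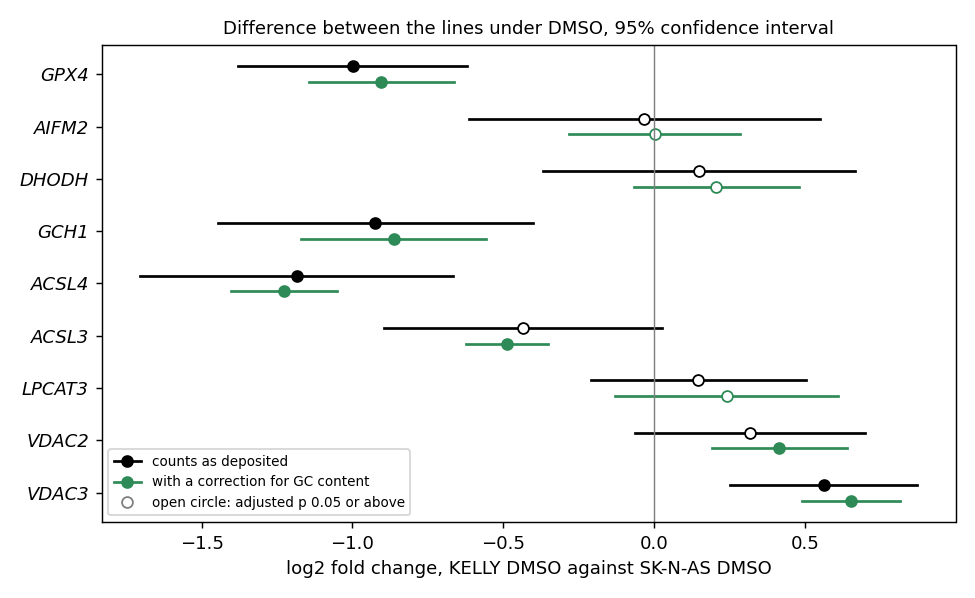
Log2 fold change of KELLY DMSO against SK-N-AS DMSO (horizontal axis) for the 9 tested genes, from the counts as deposited (black) and with a correction for GC content (green), with points for the estimate, lines for the 95% confidence interval and open circles where the adjusted p was 0.05 or above. GPX4, GCH1, ACSL4 and VDAC3 are filled in both, and ACSL3 and VDAC2 with the correction only.

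The genes whose log2 CPM followed GPX4 most closely over the 12 libraries, among 12358 genes, were SCAMP3 (Pearson r = 0.997), GNB2 (0.996) and NCK2 (0.996). Like GPX4 they are rich in GC, at 57.8%, 60.1% and 58.0%, and the points share their library and its GC trend as well as the line.

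Genes around the members were taken as 9 lists of 74 genes, and enough reads were present for 63 of them in KELLY and for 61 in SK-N-AS. After Erastin 0 of 63 were called in KELLY (edgeR quasi-likelihood test), where 1 had an unadjusted p of 0.05 or less (2.64% of all genes did), and the median log2 change was 0.03. In SK-N-AS 1 of 61 was called, beside 0.659% of all genes, and 7 had such a p, beside 8.77%, so both counts were near the share of all genes. The median was -0.01. The gene called was NQO1, a quinone reductase of the antioxidant response, which rose from 260.0 ± 11.5 to 349.5 ± 30.8 CPM (log2 change 0.44, SE 0.08, adjusted p = 0.0362). Its call was lost without SK-N-AS DMSO 2 (adjusted p = 0.174) and without Erastin 1, 2 or 3 (adjusted p = 0.0721, 0.277 and 0.205), and with all 12 libraries in 1 fit (adjusted p = 0.317).

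Closest to the members by family, GPX1, the cytosolic glutathione peroxidase, went from 102.7 ± 17.0 to 69.6 ± 2.56 CPM in SK-N-AS (-0.55, SE 0.11, adjusted p = 0.0597). Its groups did not overlap, as for 7.81% of all genes in that direction. For GPX1, DESeq2 gave an adjusted p of 7.35e-04 and the GC correction 0.00131, at -0.55 and -0.49. In KELLY its change was 0.39 (95% CI -0.45 to 1.24). The acyltransferases MBOAT7 (-0.32, adjusted p = 0.363) and LPCAT4 (-0.28, adjusted p = 0.397) had the smallest p-values of the phospholipid remodelling list in SK-N-AS, and with the GC correction both were called (-0.30, adjusted p = 0.00125, and -0.26, adjusted p = 0.0106). Leaving out SK-N-AS DMSO 3 also brought GPX1 (-0.68, adjusted p = 2.41e-06), MBOAT7 (-0.43, adjusted p = 0.00235) and LPCAT4 (-0.34, adjusted p = 0.0227) past the threshold. Both settings called many more genes: 963 of 16095 with the GC correction and 855 of 16433 without DMSO 3, against 106 of 16095 in the main fit. In KELLY the hexokinase HK2, which docks on VDAC channels, had the smallest unadjusted p of the 9 lists (0.0218, log2 change 0.38, adjusted p = 0.770). Its groups did not overlap, as for 4.2% of all genes in that direction.

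None of the other lists held a called gene after Erastin. The genes of each with the smallest p in KELLY were COQ8A (0.57) and COQ4 (0.39) for coenzyme Q synthesis, PTS (-0.32) for tetrahydrobiopterin, and UMPS (-0.06) and CAD (0.07) for pyrimidine synthesis. PSTK (-0.40) and SEPHS2 (0.18) led the selenoprotein list, and CYB5R1 (0.29) and ALOX12 (0.54) the lipid oxidation list. All had adjusted p-values of 0.770 or more. In SK-N-AS the corresponding genes were COQ3 (-0.24), COQ6 (0.21), QDPR (-0.16), SPR (-0.16, called without DMSO 3 at -0.33, adjusted p = 0.0413), SEPSECS (0.17), PSTK (0.14), NEDD4 (0.19), VDAC1 (-0.13), ALOX12 (0.31) and SAT1 (0.09), at adjusted p-values of 0.597 or more.

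Between the lines under DMSO, 41 of 63 list genes were called (65.1%), 21 higher and 20 lower in KELLY, beside 61.3% of all genes. Coenzyme Q synthesis had 5 of 13 called, 2 higher and 3 lower in KELLY, among them COQ8A (1.93, a kinase-like protein of the pathway) and the methyltransferase COQ5 (-1.02). Of 6 tetrahydrobiopterin genes 4 were called, 3 higher, including the recycling enzyme QDPR (1.13), and 1 lower, the sepiapterin reductase SPR (-0.75). CAD (0.53) and UMPS (0.77), the other enzymes of pyrimidine synthesis around DHODH, were both higher in KELLY, although CAD lost its call without SK-N-AS DMSO 2 or 3 or KELLY DMSO 2 or 3 (adjusted p = 0.0971, 0.104, 0.0637 and 0.0829). SPR lost its call without SK-N-AS DMSO 1 or 2 or KELLY DMSO 3 (adjusted p = 0.0765, 0.0872 and 0.0671).

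Beside GPX4 itself, 5 of 8 selenoprotein synthesis genes were called, 1 higher (PSTK, 0.86, not called without SK-N-AS DMSO 2, adjusted p = 0.0585) and 4 lower in KELLY, including the selenophosphate synthetase SEPHS2 (-1.15) and PRDX6 (-1.23). GPX3 was higher (2.37) and GPX7 lower (-1.64) in KELLY. Of 15 genes of acyl chain activation and remodelling, 14 were called, 9 higher and 5 lower. The 9 include ELOVL2 and ACSL6, which passed the count filter through KELLY only and so had to differ. ELOVL2, an elongase of polyunsaturated fatty acids, had 2472, 1555 and 2168 counts in KELLY DMSO. Every SK-N-AS library had 0, so that with a floor of 3 counts per library the KELLY level was at least 687-fold higher. SCD, the desaturase that makes monounsaturated fatty acids, was at 1080 ± 32.3 and 561 ± 6.54 CPM (0.96), while MBOAT7 (-2.49) and MBOAT1 (-2.97) were lower in KELLY. In the list named lipid oxidation, ALOX12 was higher (1.11, not called without SK-N-AS DMSO 1 or 2 or KELLY DMSO 3, adjusted p = 0.0558, 0.0882 and 0.110) and SAT1 lower (-2.31). Of VDAC1 and the VDAC partners 4 of 5 were lower, among them HK1 (-1.03). NQO1 was lower in KELLY by the widest margin of its list, at 23.5 ± 2.09 against 260.0 ± 11.5 CPM (-3.45, adjusted p = 2.14e-07).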

How the data were processed

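RNA from 12 cultures of KELLY and SK-N-AS was sequenced as paired 150-base reads. Per the study's methods and processing notes, the authors used Trimmomatic, aligned reads to GRCh38 and counted genes with HTSeq on GENCODE 29, and the deposited values are raw counts per gene. Groups came from the labels, whose titles read Control or Erastin. The study names the control as DMSO and gives the Erastin doses. Here each comparison was fitted on all genes with edgeR 4.0.16 (R 4.3.3) by filterByExpr, TMM scaling and the quasi-likelihood test, called at a Benjamini-Hochberg adjusted p under 0.05. Intervals are 95% and come from that fit. CPM used TMM-scaled totals, and lengths, GC content and coordinates came from GENCODE 44 by symbol. The GC correction fitted a loess curve (span 0.5) of each library's log2 deviation on GC and entered it as an offset. Only the main fit of each comparison was tested on simulated data, which held no GC trend. The GC correction and the other alternatives were not tested in this way. Alternatives were RLE scaling or none, DESeq2 1.42.0, limma-voom (limma 3.58.1), other filters, protein-coding genes, a replicate block, the GC correction, a fit of all 12 libraries, each library left out, and the rule of the study's methods (p of at most 0.05, fold of at least 1.5). The members, lists and markers were chosen with earlier results of these data known. All members are named. From each list the genes called, or else the 2 with the smallest p, are named for Erastin, and up to 2 per direction for the lines. A gene that this rule names is not reported here.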

Additional observations from a re-analysis of the deposited data

How the results depend on the processing

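The calls of 0 members after Erastin in KELLY and for the interaction held in every alternative tried, and in SK-N-AS in all but the replicate block with the GC correction, which called 1 (ACSL4, -0.15, adjusted p = 0.0241). The counts over all genes moved more. For KELLY, with 1 gene called, the rule of the methods gave 330, DESeq2 25, no filter 19, the GC correction 32, all 12 libraries in 1 fit 17, and leaving out 1 library 0 to 2 (0 without any DMSO library or Erastin 3, 2 without Erastin 1 or 2). Without both libraries numbered 1, a choice made after seeing the data, it was 23. For SK-N-AS, with 106, these were 429, 203, 265, 963 and 46, and 53 to 855 with 1 library left out (53 without DMSO 2, 855 without DMSO 3, 67 without Erastin 2, 70 without Erastin 3). For the interaction, with 1, the rule of the methods gave 644, DESeq2 12, no filter 8, the GC correction 18, 1 library left out 1 to 3 (3 without KELLY DMSO 2), and both KELLY libraries numbered 1 left out 3. The cause of these shifts was not tested. Between the DMSO groups 4 to 5 members were called with 1 library left out, and 7 with the GC correction and both DMSO libraries numbered 1 left out, also chosen after seeing the data, where ACSL3, VDAC2 and DHODH (0.34, adjusted p = 0.0165) were added. That correction can remove a true difference between lines that follows GC content.

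Whether the shared replicate numbers pair the samples was not settled, since the deviations compared also hold each library's GC trend. Deviations of same-numbered libraries correlated at -0.49 to -0.04 in KELLY, -0.01 to 0.12 in SK-N-AS and -0.32 to 0.10 between the DMSO groups, and 0, 3 and 1 of 6 libraries correlated best with their own number. With the replicate block, 0 genes were called in KELLY and 308 in SK-N-AS, and with the block and the GC correction 5, 1635 and, for the interaction, 10.

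Levels per kilobase of the longest transcript, in KELLY DMSO and SK-N-AS DMSO, were 170 and 137 CPM for VDAC2, 68.2 and 138 for GPX4 and 4.23 and 3.85 for DHODH. With 3 libraries a group, the members' 95% intervals ran from 0.429-fold to 1.99-fold in KELLY and from 0.756-fold to 1.33-fold in SK-N-AS. RNA levels say nothing of the enzymes' activity.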
